A study of Rattus norvegicus with 8 samples.

Results

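The CCT complex, also called TRiC, is the chaperonin of the eukaryotic cytosol. A pair of stacked rings, each built from 8 different subunits, closes over an unfolded protein and releases it after ATP hydrolysis. Actin, tubulin and many WD40 propeller proteins depend on it, prefoldin hands it clients, and phosducin-like proteins bind it as cofactors. Each subunit has a gene of its own and a fixed place in the ring, and the ring needs all of them. The genes examined here were Tcp1, which encodes the alpha subunit, Cct2 (beta), Cct3 (gamma), Cct4 (delta), Cct5 (epsilon), Cct6a (zeta), Cct7 (eta) and Cct8 (theta). A gene was included when a non-control probe of the array carried the accession of one of its rat RefSeq transcripts, which gave 8 of the 39506 distinct genes or unnamed transcripts on the array, through 10 probes and 48 of the 62976 spots. All 10 probes were well above background on all 8 arrays, so no subunit was lost to the filter on dim probes.

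RNA came from NR8383 cells, a macrophage line raised from rat lung lavage that grows partly attached and partly floating, exposed to ZnO for 4 h at either 4 or 16 µg/mL. Each dose had 4 arrays, which the series' design calls biological replicates; p-values below measure the spread between these samples, and all of them are of 1 cell line. Untreated cells were not analysed here, so the comparison is 16 minus 4 µg/mL. The sample descriptions give 20 passages for the 4 µg/mL cells and 200 for the 16 µg/mL cells, and each dose was hybridised on its own slide and scanned in its own run. Dose, passage number, slide and scan cannot be told apart in any difference below.

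The share of probes well above background ran from 31.4% to 39.3% over the arrays, and no spot was saturated. Of 13 macrophage marker genes on the array, 10 were above background on all 8 arrays, among them Cd68, Ptprc, Csf1r and Spi1, while Adgre1 and Marco were above it on none. Their summed linear level, in units of each array's 75th percentile, ran from 181 to 237 at 4 µg/mL and from 164 to 249 at 16 µg/mL. Of the 10 tested macrophage markers 1 was called higher and 2 lower, beside 19.8% and 21.9% of all genes. None of 8 epithelial markers was above background on all arrays and Epcam, Cdh1, Krt8 and Krt18 were above it on none. Only 1 of them, Foxj1, passed the filter, and it was called lower. Its linear level was 0.238 to 0.354 at 4 µg/mL and 0.0617 to 0.110 at 16 µg/mL. Of 7 fibroblast and endothelial markers 3 were tested, Dcn, Pecam1 and Cdh5, and 1 of these was called lower. They were above background throughout and summed to 1.47 to 1.70 at 4 µg/mL and to at most 0.913 at 16 µg/mL. Col1a2, Col3a1 and Pdgfra were above background on no array. The part of these marker levels in the CCT differences was not tested.

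The stretch of 250 bases before the annotated start is printed for Cct3, Cct7 and Cct8. Cct3 and Cct7 passed the test between doses, and their levels followed each other most closely. Cct8 alone passed the test against the rest of the subunits, from a dim probe, and lost that call under another background correction. The sequences are those of RefSeq on rat assembly GRCr8, written along the gene's strand from 5′ to 3′, and capitals mark every match to the motifs given below. All 8 genes matched an entry, and they lie on 7 chromosomes.
Cct3, chr2:176063279-176063528, plus strand: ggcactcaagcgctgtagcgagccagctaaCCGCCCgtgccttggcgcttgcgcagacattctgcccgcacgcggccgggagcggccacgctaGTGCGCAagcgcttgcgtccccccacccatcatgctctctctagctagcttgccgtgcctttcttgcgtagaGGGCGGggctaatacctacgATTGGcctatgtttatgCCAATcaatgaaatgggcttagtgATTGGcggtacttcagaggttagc
Cct7, chr4:119546480-119546729, plus strand: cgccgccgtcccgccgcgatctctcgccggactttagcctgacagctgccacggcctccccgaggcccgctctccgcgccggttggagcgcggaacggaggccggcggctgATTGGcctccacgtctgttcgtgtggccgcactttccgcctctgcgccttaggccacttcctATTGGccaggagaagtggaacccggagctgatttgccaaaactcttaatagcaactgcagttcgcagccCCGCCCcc
Cct8, chr11:40208329-40208578, minus strand: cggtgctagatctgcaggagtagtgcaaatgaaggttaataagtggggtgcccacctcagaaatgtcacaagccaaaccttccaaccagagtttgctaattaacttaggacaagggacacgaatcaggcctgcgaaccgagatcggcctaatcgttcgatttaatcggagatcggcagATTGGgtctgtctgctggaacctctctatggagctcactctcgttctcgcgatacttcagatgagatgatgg

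Of the motifs searched, CCAAT and its reverse ATTGG stood in 5 of the 8 CCT windows, against 34.3% of 27457 rat promoters of the same length and 37.3% of the 6696 belonging to tested genes. Cct3 held 3 of them, at -65, -48 and -24 counted from the base before the start, Cct7 held 2, at -139 and -77, and Cct8 held 1, at -72. GC boxes (GGGCGG or CCGCCC) were found in 5 windows, those of Tcp1, Cct2, Cct3, Cct6a and Cct7, against 32.4% of all promoters and 58.9% of those of tested genes; the Cct8 window had none. The inverted heat shock element core GAANNTTC had no match in the CCT windows (7.02% of all promoters, 4.69% of those of tested genes). The other core, TTCNNGAA, was found in Cct5 and Cct6a (7.23% and 6.36%). The E-box CACGTG was in no CCT window (5.79% and 8.6%). The core of the metal response element (TGCACNC or TGCGCNC, or their reverse complements GNGTGCA and GNGCGCA) is bound by the zinc-sensing factor MTF1. It was found in Cct3 and Cct5, against 21.2% of all promoters and 31% of those of tested genes. No motif overlapped another in the printed windows. The G and C share was 59.6% in the Cct3 window, 66.4% in Cct7 and 49.2% in Cct8, with a median of 52.0% over all promoters. A match describes these letters only.

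Levels are given as log2 of the processed signal minus the log2 75th percentile of the same array, so that a value of 1 means a signal double that percentile. They compare the same probe between arrays and do not rank one subunit against another, because probes differ in how brightly they bind. Differences were tested with limma across 13464 genes, adjusted by Benjamini-Hochberg, and called at an adjusted p under 0.05. Under this scaling Cct3 and Cct7 passed the test as higher at 16 µg/mL, and 0 passed as lower by limma; at an unadjusted p under 0.05, 4 were higher, Tcp1 and Cct2 with them, and 1 was lower, Cct8, beside 24.5% and 26.1% of all genes. At the adjusted threshold 19.8% of all genes were called higher and 21.9% lower (41.7% in either direction), so 2 of 8 is close to the background. The median difference of the 8 subunits was 0.27, beside 0.01 for all genes, and 7 of 8 differences were positive, beside 50.3% of all genes.

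The size of these differences depended on how arrays were brought to one scale. With no scaling all 8 subunits had negative differences (median -0.48), and with scaling on the spike-in controls likewise (median -0.42), but the median of all genes then stood at -0.75 and -0.69. Relative to that median, 7 of 8 subunits lay above it and Cct8 below it in both settings, as with the 75th percentile, and the CCT median lay 0.27 above it in all of them. Scaling on the array median moved all genes by 0.17 and the CCT median to 0.44. Among all calls, 47.6% were higher with the 75th percentile, 63.3% with the array median, 4.95% with no scaling and 5.49% with spike-ins. The share was 58.2% with normexp background correction, a model that used raw spot and local background signals and an offset of 50 units. The part of that offset in calls lost and signs changed under normexp was not tested. With normexp the median of all genes was 0.15, and 4 of 8 subunits lay above it. Without replicate 4 at 16 µg/mL 6 of 8 lay above the median gene. Directions below are therefore relative to the 75th percentile, and each positive difference of a subunit turned negative without scaling and with spike-ins.

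**Figure D1:**
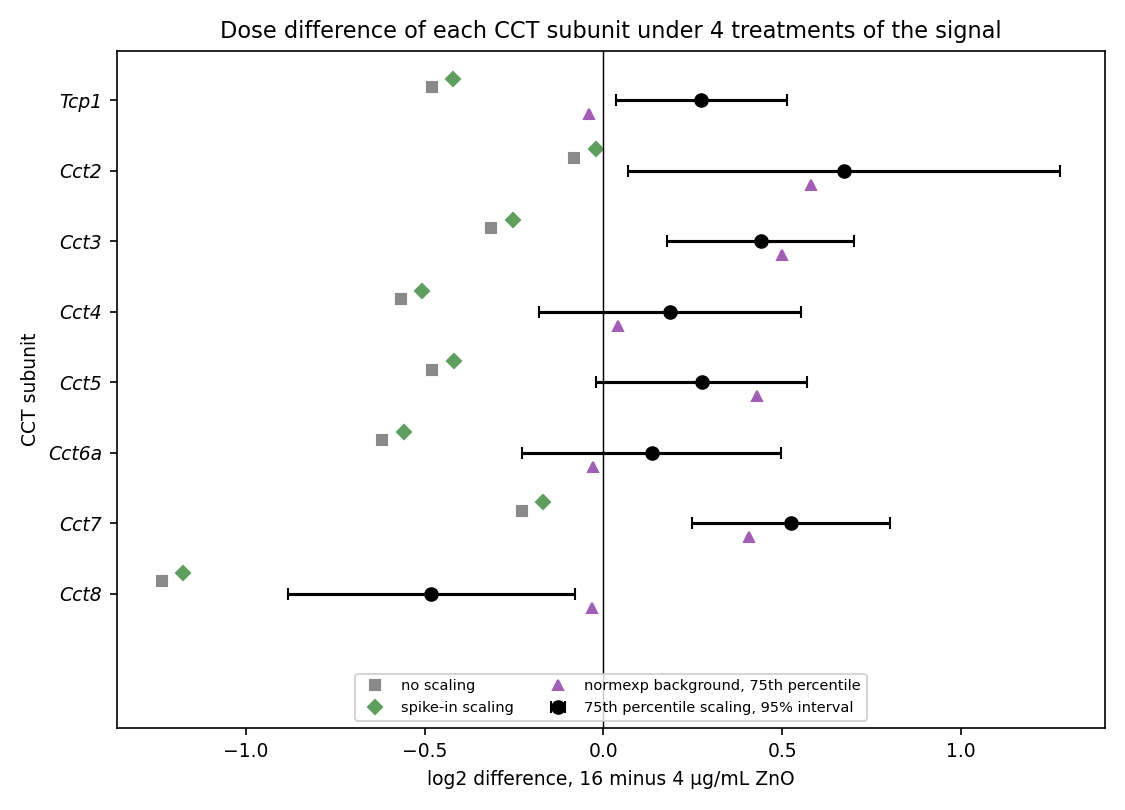
The x axis gives the log2 difference, 16 minus 4 µg/mL, of each CCT subunit on the y axis. Black points with bars are the estimates and 95% intervals with 75th percentile scaling, where 7 of 8 lie above 0; grey squares (no scaling) and green diamonds (spike-in scaling) all lie below 0, and purple triangles (normexp background) lie below 0 for Tcp1, Cct6a and Cct8.

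Cct3 and Cct7 were the subunits with the clearest change. Cct3, a neighbour of Cct6a and Tcp1 in the ring, had levels of 5.36, 5.60, 5.34 and 5.61 on replicates 1 to 4 at 4 µg/mL and of 5.89, 5.97, 5.84 and 5.97 at 16 µg/mL. All 4 arrays at the higher dose lay above all 4 at the lower. The means were 5.48 ± 0.15 and 5.92 ± 0.06 (SD, n = 4 each), a difference of 0.44 (SE 0.12, 95% interval 0.18 to 0.70), or 1.36-fold, with a limma adjusted p of 0.0136. The main Cct3 probe is spotted 10 times per array. A second Cct3 probe with 2 spots gave 3.56, 3.88, 3.51 and 3.96 at 4 µg/mL and 4.42, 4.44, 4.24 and 4.49 at 16 µg/mL. It also separated the doses, with a difference of 0.67 (SE 0.13) and a limma adjusted p of 0.00322 over the 15576 probes tested one by one, so both probes of the gene pointed the same way. Probe by probe, 3 of the 10 CCT probes were called higher and 0 lower, beside 20% and 21.7% of all probes.

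Cct7, which lies beside Cct5 and Cct8 in the ring, had levels of 3.94, 4.18, 3.96 and 4.22 at 4 µg/mL and of 4.67, 4.51, 4.45 and 4.79 at 16 µg/mL, again with no overlap. The mean rose from 4.08 ± 0.14 to 4.60 ± 0.16 (SD, n = 4 each), by 0.53 (SE 0.12, interval 0.25 to 0.80), or 1.44-fold, with a limma adjusted p of 0.00747. Its only probe has 10 spots, whose SD within an array was 0.07 to 0.17. Both calls held when any single array was left out: the Cct3 difference then ran from 0.39 to 0.48 (adjusted p 0.0172 to 0.0490) and the Cct7 difference from 0.46 to 0.58 (0.00853 to 0.0281). Cct7 lost its call with normexp (0.41, adjusted p = 0.0674), and Cct3 lost its own when dim probes were not filtered out (0.44, adjusted p = 0.0691).

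**Figure D2:**
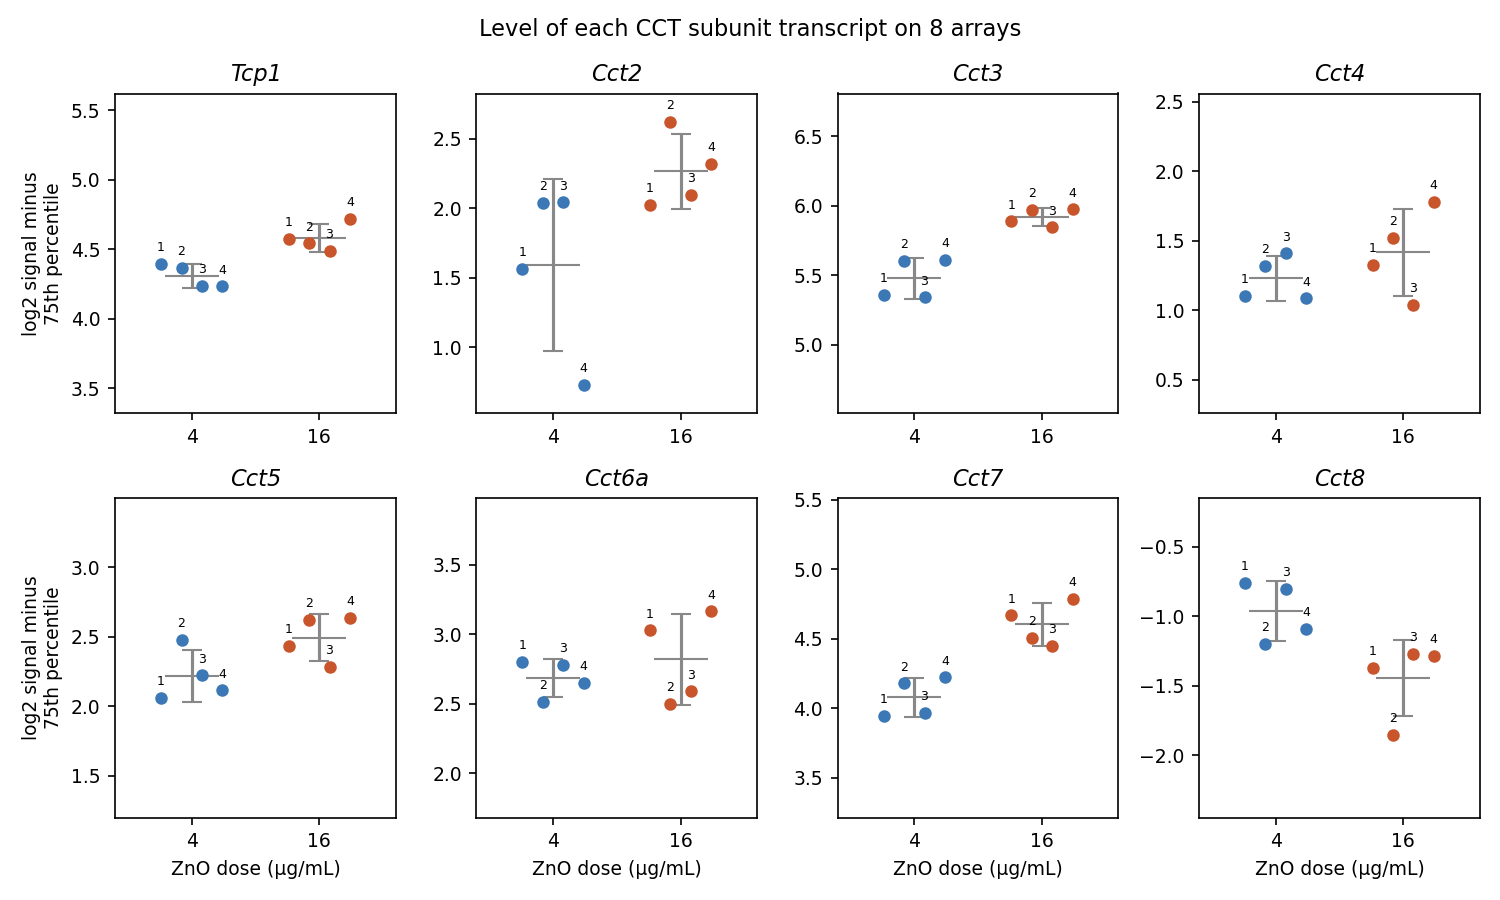
Each panel plots 1 CCT subunit, with the log2 level relative to the array's 75th percentile on the y axis over the same span in every panel and the ZnO dose on the x axis. Points are arrays with their replicate number, and bars are the mean ± SD of 4 arrays. The doses do not overlap for Tcp1, Cct3 and Cct7, which are higher at 16 µg/mL on this scale and negative without scaling or with spike-ins, nor for Cct8, which is lower.

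Tcp1 and Cct8 separated the doses without passing the test under this scaling. Tcp1, the founding member of the family, was named for the mouse t-complex where it was found. Its levels were 4.40, 4.37, 4.24 and 4.23 at 4 µg/mL and 4.58, 4.54, 4.49 and 4.72 at 16 µg/mL, from 1 spot per array. The difference was 0.27 (SE 0.11, interval 0.04 to 0.51; limma adjusted p = 0.0638). Every array at 16 µg/mL was above every array at 4 µg/mL, but the difference was -0.04 with normexp. In all, 3 of 8 subunits were wholly higher and 1 wholly lower at 16 µg/mL, beside 18.5% and 21.4% of all genes (39.9% in either direction).

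Cct8 was the only subunit of the 8 with a negative difference under the 75th percentile. It sits between Cct7 and Cct6a in the ring. Its levels were -0.76, -1.20, -0.80 and -1.09 at 4 µg/mL and -1.37, -1.85, -1.27 and -1.29 at 16 µg/mL. Replicate 2 was the lowest at both doses, and the doses did not overlap. The difference was -0.48 (SE 0.18, interval -0.88 to -0.08; limma adjusted p = 0.0549). This probe has 1 spot and a low signal. The unscaled processed signals were 305, 136, 274 and 201 at 4 µg/mL and 145, 41.7, 78.8 and 156 at 16 µg/mL, and the local background was 27 to 36 units of raw signal. With normexp the Cct8 difference was -0.03, or -0.19 relative to all genes. The normexp offset of 50 units is larger than the lowest of these processed signals, 41.7 on replicate 2 at 16 µg/mL. Its part in the smaller difference was not tested. Without scaling Cct8 was called lower (-1.24, adjusted p = 0.0374), as it was with spike-ins (-1.17, adjusted p = 0.0321); relative to all genes the difference was -0.48 and -0.49 in these settings.

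The other subunits overlapped between doses. Cct4, a subunit in which a mutation causes a sensory neuropathy in the mutilated-foot rat, had levels of 1.103, 1.32, 1.41 and 1.09 at 4 µg/mL and of 1.33, 1.52, 1.04 and 1.78 at 16 µg/mL. Its highest and its lowest array were both at 16 µg/mL, and the difference was 0.19 (SE 0.17, interval -0.18 to 0.55; limma adjusted p = 0.389). Cct5, also a neuropathy gene, in people, had levels of 2.06, 2.48, 2.22 and 2.11 at 4 µg/mL and of 2.43, 2.62, 2.28 and 2.64 at 16 µg/mL. Replicate 2 at 4 µg/mL lay within the range of the other dose, and the difference was 0.27 (SE 0.13, interval -0.02 to 0.57; limma adjusted p = 0.122). Cct5 passed the test with normexp (0.43, adjusted p = 0.0474). Relative to the median of all genes its difference was 0.27 both there and in the main processing.

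Cct6a, the ubiquitous form of the zeta subunit, had levels of 2.80, 2.51, 2.78 and 2.65 at 4 µg/mL and of 3.03, 2.50, 2.59 and 3.17 at 16 µg/mL. Replicates 1 and 4 at 16 µg/mL were high and replicate 3 was within the range of the lower dose and replicate 2 just under it. The difference was 0.13 (SE 0.16, interval -0.23 to 0.50; limma adjusted p = 0.534). The second Cct6a probe, with 1 spot, showed the same split at 16 µg/mL, with 0.50 and 0.80 on replicates 1 and 4 against 0.18 and 0.14 on replicates 2 and 3. Its difference was 0.11 (SE 0.16, limma adjusted p = 0.593 over probes). The intervals of Cct4, Cct5 and Cct6a include both 0 and differences as large as that of Cct3, so these data do not show whether they moved less.

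Cct2 had a difference of 0.67, larger than those of Cct3 and Cct7 under this processing, and the widest spread of the 8 at 4 µg/mL. Its levels were 1.57, 2.04, 2.04 and 0.73 at 4 µg/mL and 2.03, 2.62, 2.10 and 2.32 at 16 µg/mL. Replicate 4 at 4 µg/mL stood far below the other 3 arrays of its dose, while replicates 2 and 3 overlapped with the higher dose. The SE was 0.27, the interval 0.07 to 1.28 and the limma adjusted p 0.0706. The probe has 10 spots on each array. On the other 7 arrays the SD among spots in use was 0.06 to 0.16, and on replicate 4 at 4 µg/mL it was 2.40, where spots ran from -5.70 to 2.13 with a median of 1.80 and 4 of the 10 lay under 1. Only the spot at -5.70 lay in the low-signal areas of that array, which hold 2445 spots together. No other spot of the CCT probes did, and the cause of the other 3 low spots was not tested. The spot at -5.70 was also the lowest of the 10 on replicates 1 to 3 at 4 µg/mL, at 0.75, 0.75 and 1.07. There its outlier flag left it out, while on replicate 4 it was not flagged and was kept. Without replicate 4 at 4 µg/mL the Cct2 difference was 0.38 (adjusted p = 0.115). With the median of spots in place of the mean it was 0.41 (0.0623), and with the low areas masked 0.49 (0.0449), which passed the test. In each of these 3 settings the Cct2 difference was smaller than that of Cct7, at 0.57, 0.50 and 0.53. The call was also made without replicate 2 at 4 µg/mL (0.82, adjusted p = 0.0499), with array median scaling (0.84, 0.0425) and with quantile normalization (0.74, 0.0455).

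**Figure D3:**
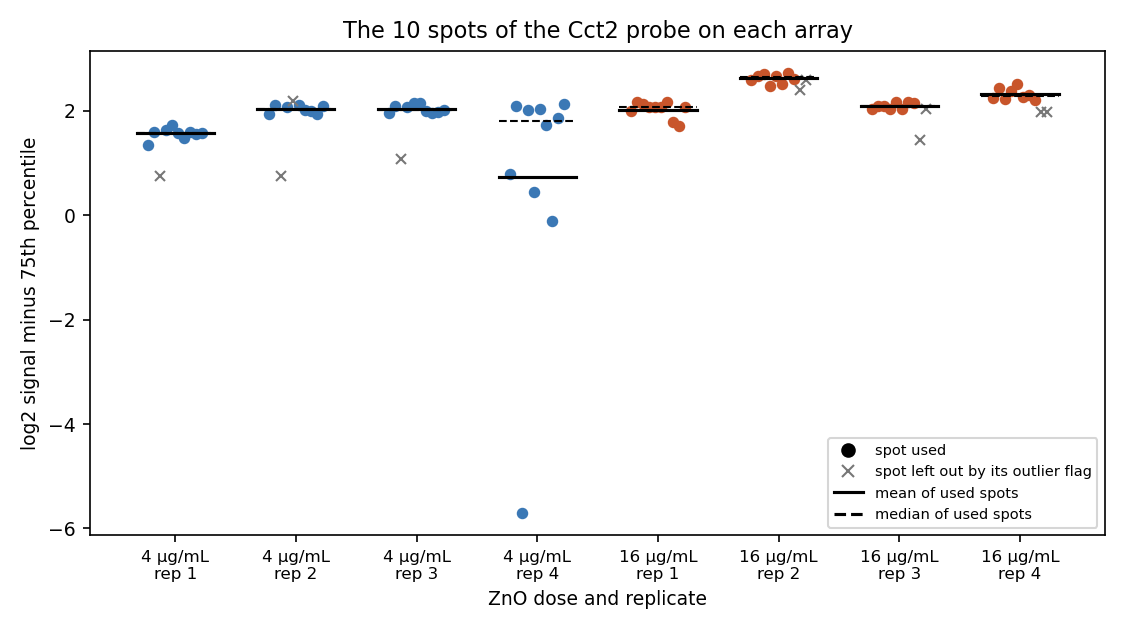
The y axis gives the log2 level, relative to the array's 75th percentile, of the 10 spots of the Cct2 probe on each of the 8 arrays along the x axis. Dots are spots in use, crosses are spots left out for an outlier flag, solid lines are means and dashed lines are medians of the spots in use. On replicate 4 at 4 µg/mL 4 spots lie below 1, so its mean is 0.73 and its median 1.80.

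Across the 8 arrays, the subunits' profiles (levels minus each subunit's own mean) were compared by their root mean square distance, over 28 pairs. Cct3 and Cct7 were the closest pair, at 0.09, and Cct2 and Cct8 the farthest, at 0.76. Measured against the mean of the other 7, Tcp1 was the nearest, at 0.08, followed by Cct5 (0.12), Cct4 (0.15), Cct3 (0.19), Cct7 (0.21), Cct6a (0.22), Cct2 (0.47) and Cct8 (0.49). These distances are descriptions: the profiles share the arrays, their scaling and the dose difference. On the mean over the 8 subunits, replicate 4 at 16 µg/mL was the highest array (3.01) and replicate 4 at 4 µg/mL the lowest (2.44). The array means were 2.44 to 2.66 at 4 µg/mL and 2.69 to 3.01 at 16 µg/mL, without overlap on this scale, and the lowest of them includes the low Cct2 value of 0.73. The array medians over the 8 subunits, 2.38 to 2.50 and 2.44 to 2.90, did overlap.

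Because the subunits work in fixed proportion, each was also set against the mean of the other 7 on the same array, a within-array difference that no scaling factor can change. Cct8 alone passed the test. It stood at -3.79, -4.42, -3.95 and -4.04 relative to the others at 4 µg/mL and at -4.79, -5.32, -4.53 and -4.91 at 16 µg/mL; the distance from 0 has no meaning, because probes differ in brightness. All 4 arrays at 16 µg/mL lay below all 4 at 4 µg/mL. The mean fell from -4.05 ± 0.27 to -4.89 ± 0.33 (SD, n = 4 each), by 0.84 (SE 0.22, interval -1.32 to -0.36; limma adjusted p = 0.0119). When all genes were set against the CCT mean in this way, 29.3% were called lower and 7.78% higher (37.1% in either direction), so 1 of 8 called lower is below the background share.

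None of the other 7 passed. Relative to the rest, Cct2 differed by 0.48 (limma adjusted p = 0.193), Cct7 by 0.31 (0.138), Cct3 by 0.21 (0.342), Tcp1 by 0.02 (0.907), Cct5 by 0.02 (0.906), Cct4 by -0.08 (0.719) and Cct6a by -0.14 (0.566). Tcp1 had the narrowest interval of these, -0.28 to 0.32. A ratio within the array shows unequal change and does not show which subunit stayed level. The Cct8 call was kept whenever 1 array was left out (-0.96 to -0.70, adjusted p 0.00884 to 0.0425) and was lost with normexp (-0.30, adjusted p = 0.395). Without replicate 4 at 4 µg/mL, the array with the low Cct2 spots, Cct7 was called higher relative to the others as well (0.42, adjusted p = 0.0468).

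**Figure D4:**
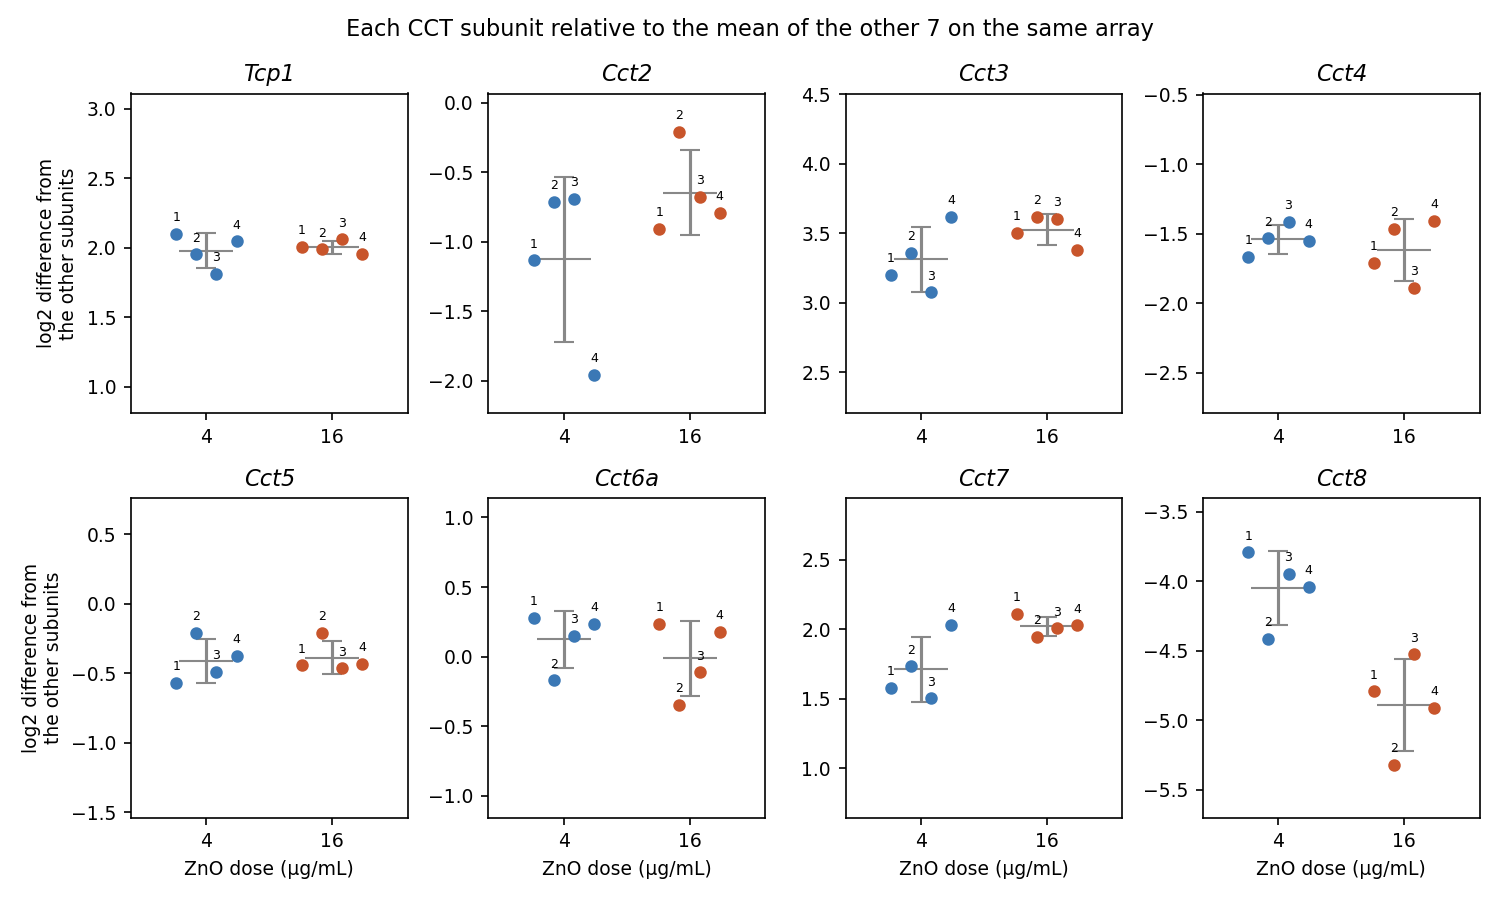
Each panel plots 1 CCT subunit as its log2 level minus the mean of the other 7 on the same array (y axis, same span in every panel) against ZnO dose (x axis). Points are arrays with their replicate number and bars are the mean ± SD of 4 arrays. Cct8 falls from -4.05 to -4.89 with no overlap, and Tcp1 and Cct5 differ by 0.02.

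The named genes outside the complex whose profile over the 8 arrays came closest to the mean of the 8 subunits were Fancd2, a Fanconi anaemia gene (distance 0.04), Sptlc1, a subunit of serine palmitoyltransferase (0.04), Bloc1s2, of the BLOC-1 complex (0.05), Psat1, an enzyme of serine synthesis (0.05), and Vmp1, a membrane protein of autophagy (0.05). None passed the test between doses, with differences of 0.20 to 0.26 under this scaling that turned negative without scaling or with spike-ins. With normexp Fancd2 was called higher (0.44, adjusted p = 0.0263). For Psat1 and Vmp1 the likeness belongs to the brightest probe: a second Psat1 probe differed by -0.996 and was called lower, and other Vmp1 probes differed by 0.997 and -0.66.

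Genes that work with CCT were taken by list. Counts of called genes stand beside 19.8% of all genes called higher and 21.9% called lower. Of 7 paralogs and related chaperonins, 4 could be tested, with a median of 0.15, 1 higher and 1 lower. Hspe1, the mitochondrial co-chaperonin, was higher by 0.36 (SE 0.11, limma adjusted p = 0.0261), from levels of 5.62 to 5.84 at 4 µg/mL and 6.01 to 6.20 at 16 µg/mL, while its second probe differed by -0.10 (adjusted p = 0.529). Its partner Hspd1, the mitochondrial chaperonin itself, did not pass (0.10, with 3 probes from -0.26 to 0.16), nor did Mkks, a chaperonin-like gene of Bardet-Biedl syndrome (0.20). Bbs10, another such gene, was called lower on its measured difference (-1.16, limma adjusted p = 0.0148). No array at 16 µg/mL had it well above background, which leaves it at least 1.06-fold lower, a bound that was not itself tested. That bound uses the lowest signal counted as above background on each dim array, or the probe's own where higher, and with such a floor on all signals the call was lost (-0.19, adjusted p = 0.555).

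Of 9 prefoldin and prefoldin-like genes, 6 could be tested, with a median of -0.06. Among these 1 was higher and 1 lower, beside 19.8% and 21.9% of all genes. Pdrg1, a prefoldin-like protein of the R2TP-associated complex, had levels of 1.31, 1.37, 1.17 and 1.09 at 4 µg/mL and of 1.72, 1.75, 1.51 and 1.61 at 16 µg/mL and was higher by 0.41 (SE 0.12, limma adjusted p = 0.0167). Pfdn1, a beta-type subunit of prefoldin proper, had levels of 1.27, 1.07, 0.996 and 1.02 against 0.85, 0.82, 0.36 and 0.60 and was lower by 0.43 (difference -0.43, SE 0.14, limma adjusted p = 0.0322). Pfdn5 (0.03), Pfdn6 (-0.21), Uxt (0.09) and Uri1 (-0.15) did not pass.

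Of 4 phosducin-like cofactors, 3 could be tested. Pdcl3 had levels of -0.57, -0.76, -0.58 and -0.89 at 4 µg/mL and of -1.01, -1.87, -2.05 and -1.07 at 16 µg/mL and was lower (-0.80, SE 0.24, limma adjusted p = 0.0243). Pdcl, which assists CCT in assembling G protein beta subunits, differed by -0.27 (adjusted p = 0.520), with replicate 4 at 4 µg/mL at -2.50 and the other arrays of that dose at -1.16 to -0.81. Without that array it was called lower (-0.64, adjusted p = 0.0171). Txndc9 differed by 0.05. The median of the 3 was -0.27. With normexp Pdcl stood at 0.03, but the median of all genes was then 0.15. Relative to that median Pdcl stood at -0.12, Txndc9 at -0.08 and Pdcl3 at -0.54.

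For client genes and tubulin cofactors too, counts stand beside 19.8% of all genes called higher and 21.9% called lower. The actin list had 2 of 6 tested genes higher and 0 lower by limma (1 lower, Actr2, at an unadjusted p under 0.05), with a median of 0.20. Both were centractins of the dynactin complex, Actr1a (0.73, SE 0.15, limma adjusted p = 0.00309) and Actr1b (0.73, SE 0.10, limma adjusted p = 0.000358). Of 18 tubulin genes 11 were tested, with a median of 0.03. Of these 2 were higher and 2 lower, close to the shares of all genes. Tuba4a was higher by 0.88 (SE 0.16, limma adjusted p = 0.00173) and Tubb6 by 0.47 (SE 0.14, limma adjusted p = 0.0189), and Tuba3a was lower (-1.83, SE 0.28, limma adjusted p = 0.000585), as was Tuba1a, with a mean of 3.47 ± 0.06 at 4 µg/mL and 2.47 ± 0.33 at 16 µg/mL, which is named here after its value was seen. Actin and tubulin genes are near-identical in parts, and whether a probe takes signal from another copy was not tested. Of 7 tubulin folding cofactors, which act on tubulin after CCT, 5 were tested, 2 higher and 0 lower by limma (0 also at an unadjusted p under 0.05), with a median of 0.17: Arl2, a small GTPase, by 0.75 (SE 0.15, limma adjusted p = 0.00359) and Tbcd by 0.53 (SE 0.17, limma adjusted p = 0.0291), although a second Tbcd probe differed by -0.31.

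Of 20 WD40 and other clients, 17 were tested, with a median of 0.03. Of these 2 were higher and 3 lower, beside 19.8% and 21.9% of all genes. Stat3, a cytokine-responsive transcription factor, had levels of 0.99 to 1.23 at 4 µg/mL and of -0.54 to -0.33 at 16 µg/mL, a difference of -1.52 (SE 0.12, limma adjusted p = 7.66e-06). The mitotic kinase Plk1 (-0.92, SE 0.18, limma adjusted p = 0.00269) and cyclin E1, Ccne1 (-0.43, SE 0.12, limma adjusted p = 0.0182), were lower too, and the WD40 gene Dcaf7 was higher (0.58, SE 0.13, limma adjusted p = 0.00661), as was the tumour suppressor Vhl (0.40), also named after its value was seen. The 3 genes of heat shock transcription control were all tested. Hsf1, which drives many chaperone genes, had levels of 0.41, 0.75, 0.39 and 0.71 against 1.40, 2.06, 2.03 and 1.05 and was higher by 1.07 (SE 0.22, limma adjusted p = 0.00408), although a second probe differed by 0.23 (adjusted p = 0.299 over probes). Hsbp1, which binds heat shock factors, was higher by 0.48 (SE 0.11, limma adjusted p = 0.00552), and Hsf2 differed by -0.23.

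Some companion calls lay close to the threshold. Leaving out a single array ended the call of Hspe1 (4 µg/mL replicate 1, 3 or 4; 0.33 to 0.36, adjusted p 0.0592 to 0.0737), Pfdn1 (4 µg/mL replicate 1, 2 or 3, or 16 µg/mL replicate 3 or 4; -0.46 to -0.33, 0.0529 to 0.0947), Pdcl3 (4 µg/mL replicate 1 or 3, or 16 µg/mL replicate 2 or 3; -0.76 to -0.61, 0.0595 to 0.0651) and Tbcd (4 µg/mL replicate 1, 2 or 3, or 16 µg/mL replicate 2 or 3; 0.46 to 0.55, 0.0563 to 0.0839). It also ended that of Tubb6 (4 µg/mL replicate 1 or 3, or 16 µg/mL replicate 1; 0.39 to 0.43, 0.0505 to 0.0584) and Ccne1 (4 µg/mL replicate 1; -0.40, 0.0532). Under normexp the calls of Actr1a, Tubb6, Ccne1, Dcaf7 and Hsbp1 were lost, and Pdrg1 (-0.05) and Bbs10 (0.10) changed sign. Relative to the median of all genes under normexp, Pdrg1 stood at -0.20 and Bbs10 at -0.06. The calls of Pfdn1, Pdcl3 and Ccne1 were lost with array median scaling, those of Hspe1, Pfdn1, Pdrg1, Bbs10 and Ccne1 with no filter on dim probes, and those of Hspe1 and Tbcd when a gene's probes were averaged. Without scaling, only Tuba4a (0.12) and Hsf1 (0.31) of the companion genes named as higher by the rule kept a positive difference, and neither passed the test.

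**Figure D5:**
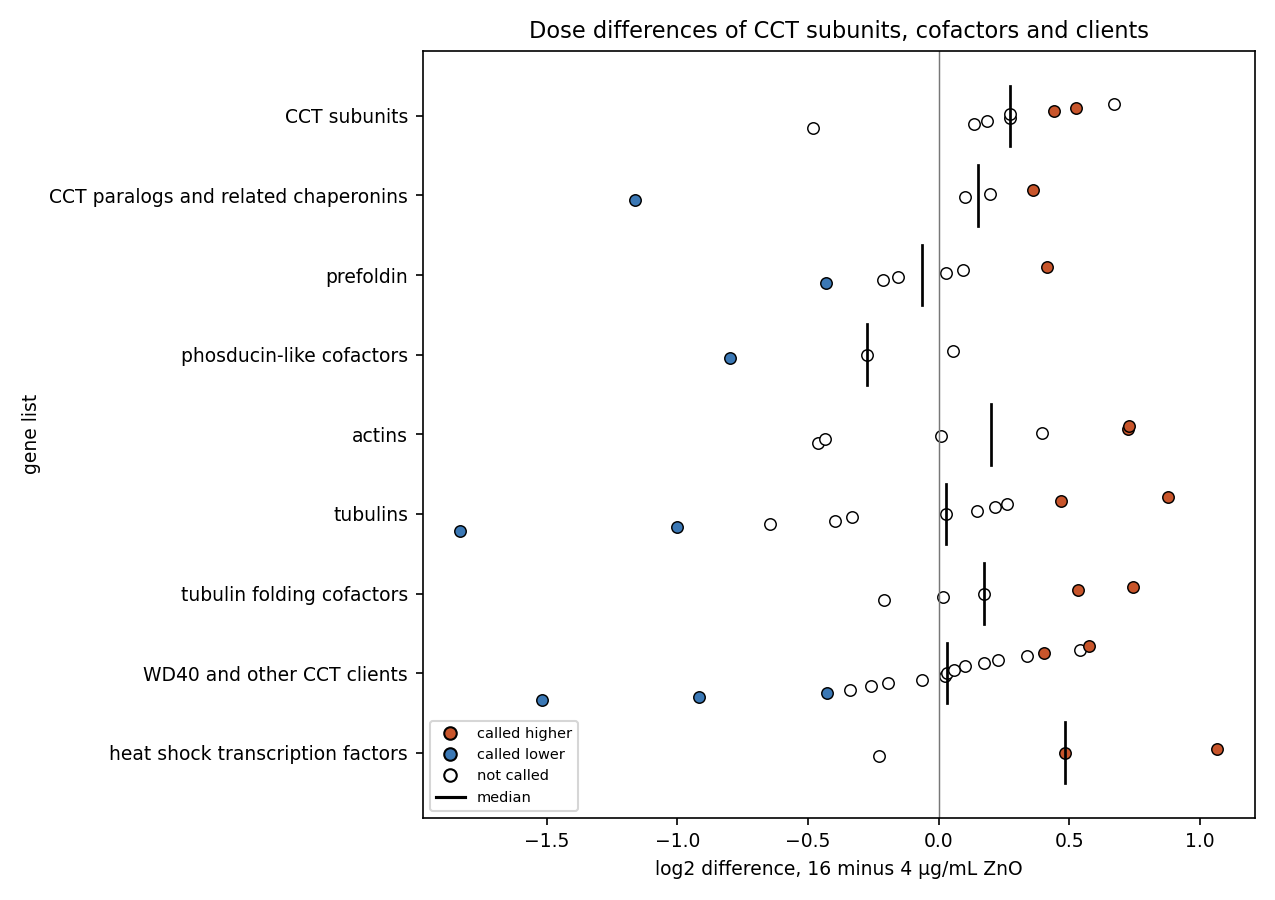
The x axis gives the log2 difference, 16 minus 4 µg/mL, relative to the 75th percentile, and each row of the y axis is a gene list, with CCT subunits on top. Points are genes, filled red where called higher and blue where called lower by limma (adjusted p under 0.05) and white where not called, and the bar is the list median. The CCT median is 0.27 and the medians of the other lists run from -0.27 (phosducin-like cofactors) to 0.48 (heat shock transcription factors); without scaling or with spike-ins the CCT differences are all negative.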

How the data were processed

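Each of the 8 samples was hybridised with Cy3 cRNA to a 1-colour Agilent array, per the labels. The deposited intensity is the processed signal from Feature Extraction (Agilent; version 11.0.1.1 in the submitters' processing notes), background-subtracted and spatially detrended within each array and not normalized between arrays, per the file headers. Raw median spot and background intensities, deposited beside it, were used for the normexp alternative (offset 50). The headers name build rn4; gene names were matched by accession to a RefSeq table of GRCr8, used for names and promoters only.

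The log2 of the deposited signal minus its array's 75th percentile (control spots left out) was analysed. Spots flagged as non-uniform or as population outliers were dropped, repeated spots were averaged, and probes kept when well above background on at least 3 of 4 arrays of a dose. The brightest probe stood for a gene. Doses were compared with limma 3.58.1 in R 4.3.3 (lmFit, eBayes with intensity trend, two-sided, Benjamini-Hochberg over 13464 genes, threshold 0.05). The fit was also run on simulated data with independent noise and few changed genes. That setting leaves out errors shared by an array, so it cannot show that the calls made here are right. The number of arrays, 4 per dose, limits the precision. Alternatives covered scaling, background, filters, spots, probes, a replicate block and each array left out; the median of spots and the mask of low areas on bright spots were added after seeing the data.

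The subunits and all lists were chosen with earlier results of these data known, and no list was tested as a set. Named were all subunits, all measured paralogs, prefoldin and phosducin-like genes, from each other list up to 3 called genes in the more common direction and 1 in the other, by size, and the 5 named genes nearest in profile. Where directions tied, higher was taken as the majority. A further marker list is not reported here.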

Additional observations from a re-analysis of the deposited data

How the results depend on the processing

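Cct3 kept its call except without scaling, with spike-in scaling and with no filter on dim probes, and Cct7 except without scaling, with spike-in scaling and with normexp. The scale between arrays decided the sign of most differences. With no scaling 0 subunits were called higher and 1 lower (Cct8), beside 230 and 4412 of all 13464 genes. The CCT median was then -0.48 and 1 subunit probe was called. With spike-in scaling 0 subunits were called higher and 1 lower, beside 256 and 4405 of all genes. There the CCT median was -0.42 and 1 subunit probe was called. Array median scaling gave a CCT median of 0.44. Quantile normalization gave 4 subunits called higher, beside 3045 of all 13464 genes, and 5 probes called. The share of all probes called in these settings is not given, so the probe counts cannot be read against a background. With no filter on dim probes 1 subunit was called higher, Cct7, beside 2146 of the 39505 genes tested. Without scaling the differences that changed sign were Tcp1 -0.48, Cct2 -0.081, Cct3 -0.31, Cct4 -0.57, Cct5 -0.48, Cct6a -0.62 and Cct7 -0.23 among the subunits and Mkks -0.56, Hspd1 -0.65, Hspe1 -0.39, Pfdn5 -0.73, Uxt -0.66, Pdrg1 -0.34, Txndc9 -0.70, Actr1b -0.026, Actr1a -0.028, Tubb6 -0.28, Arl2 -0.0088, Tbcd -0.22, Dcaf7 -0.18, Hsbp1 -0.27, Fancd2 -0.50, Sptlc1 -0.54, Bloc1s2 -0.53, Psat1 -0.52 and Vmp1 -0.56 among the other genes. With spike-in scaling they were Tcp1 -0.42, Cct2 -0.021, Cct3 -0.25, Cct4 -0.51, Cct5 -0.42, Cct6a -0.56 and Cct7 -0.17, and Mkks -0.50, Hspd1 -0.59, Hspe1 -0.33, Pfdn5 -0.67, Uxt -0.60, Pdrg1 -0.28, Txndc9 -0.64, Tubb6 -0.22, Tbcd -0.16, Dcaf7 -0.12, Hsbp1 -0.21, Fancd2 -0.44, Sptlc1 -0.48, Bloc1s2 -0.47, Psat1 -0.46 and Vmp1 -0.50. Normexp turned Tcp1 -0.041, Cct6a -0.028, Mkks -0.065, Bbs10 0.10, Hspd1 -0.00066, Pfdn5 -0.30, Uri1 0.14, Pdrg1 -0.048 and Pdcl 0.032, set Tcp1 against the other subunits at -0.31, and ended the only call of a subunit against the rest, leaving 0. The median of all genes was 0.15 under normexp, and relative to it Bbs10 stood at -0.06, Uri1 at -0.010 and Pdcl at -0.12. Array median scaling moved Uri1 to 0.013, and the mean of a gene's probes moved Hspd1 to -0.0014 and Psat1 to -0.38. Apart from changes that these settings make by construction, the cause was not tested.

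Leaving out 1 array at a time gave 1 to 2 subunits called against the rest. The share of all genes called in those fits is not given. The differences that crossed 0 were uncalled ones near it: Pfdn5 (-0.054 to 0.11), Uxt (-0.026 to 0.21), Txndc9 (-0.0059 to 0.12), and, against the other subunits, Tcp1 (-0.031 to 0.065), Cct5 (-0.034 to 0.092) and Cct4 (-0.15 to 0.014). Deviations of same-numbered arrays correlated at 0.25, 0.40, -0.22 and -0.03. Differently numbered arrays were not compared in this way, so whether replicate numbers pair the samples is not known. With the replicate number as a block 2 subunits were still called higher, 1 was called lower (Cct8, -0.48, limma adjusted p = 0.0404), and over all genes 2593 were higher and 2878 lower. Tbcd lost its call under the block (adjusted p = 0.0546), and no other named gene changed its call.

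The planned mask of low-signal areas marked 1 spot of the CCT probes, and the mask judged on bright spots, added after the data were seen, marked 1 other. The signal over background limits what the Cct8 spot can show. None of 78 sets of 4 arrays, over 39 named genes at 2 doses, held an outlier by Dixon's ratio. With 4 values in a set this ratio flags only extreme values, so it cannot show that no array value was aberrant. It did not flag replicate 4 at 4 µg/mL for Cct2, at 0.73 beside 1.57 to 2.04 on the other arrays of that dose. Nor did it flag that array for Pdcl, at -2.50 beside -1.16 to -0.81.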
